A study of Mus musculus with 16 samples.

Results

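In liver RNA of C57BL/6J mice, 938 transcripts of the NONCODE catalogue of non-coding RNAs were measured that lie in the 3′ untranslated exons of protein-coding genes. They were taken from 51024 listed transcripts, 44554 of them with NONCODE identifiers. Of these, 29399 were single intervals, with a genomic width within 1 base of the transcript length. In 3046 of them, at least 50% of the interval lay in exons of a GENCODE M21 protein-coding gene and more exonic bases lay in 3′ untranslated region (3′ UTR) than in coding sequence or 5′ UTR. The 938 were those that reached 1 FPKM (fragments per kilobase of transcript and per M mapped reads) in at least 4 of 16 libraries. The other 2108 stayed under that level and are not described further. The members were thus selected on their FPKM in these same libraries, so their levels and their pattern of high and low libraries are given as a description, without a test.

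The mice were in 4 groups, with 4 liver libraries each. Mice of 1 group had high-fat feed and 100 mg/kg resveratrol, a plant polyphenol, per day by gavage. Mice of another had high-fat feed and 200 mg/kg metformin, a glucose-lowering drug, per day by gavage. The remaining groups had high-fat feed alone and ordinary feed, and their labels name no gavage and no vehicle. All labels give postnatal day 21 and do not say what was done at that age. The sources used here do not give sex, pooling of animals or feed composition. The 4 high-fat titles share 1 prefix of unstated meaning that no other group has, so whatever it marks cannot be told apart from the feed. Nothing states that libraries of a group came from separate litters or cages, so p-values reflect the spread between these libraries.

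The members lay close to the limits of the rule in few cases. Among members close inside, the fourth-highest FPKM was 1.0019 at Senp7, and just outside it was 0.9997 at Dnaja1. The lowest exonic share inside was 50.1%, at Ttpal (NONMMUT041011.2), and the highest share outside was 49.5% (NONMMUT011192.2). Of the 938, 857 lay wholly in exons and 787 (83.9%) wholly in 3′ UTR. The rule itself required at least 50% in exons, with more bases in 3′ UTR than in coding sequence or 5′ UTR. They lay on 851 host genes, of which 777 carried 1 member and 74 carried several. Cdk6, D16Ertd472e and Slc8a1 carried 4 each. In 53 members, exons of another coding gene ran under part or all of the interval. At hosts named below, such exons covered 70.8% of the member at Irs1, 43.7% at Mrs2, 21.7% at Dmtf1, 11.7% at Acsl5 and 3.21% at Mafg.

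The 3′ UTR is the stretch of a messenger RNA after its stop codon. It holds the sites through which RNA-binding proteins and microRNAs set the stability, location and translation of the message. It ends where the RNA is cut and polyadenylated, usually shortly after a hexamer, AATAAA or ATTAAA, that the cleavage machinery reads; many genes have several such sites and so make long and short 3′ UTRs. Catalogues of non-coding RNA list stretches of this kind as transcripts of their own, while reads there can also come from the host's messenger RNA. The sources used here do not say whether strands were kept apart, and the values do not separate sources, so a level below is that of a stretch of 3′ UTR; the gene symbol gives its place, not the level of the coding gene.

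The ends of members were set against annotated transcript ends of their hosts on GRCm38. Of the 938 intervals, 466 (49.7%) ended within 10 bases of an annotated end of the host and 561 (59.8%) within 100 bases. Another 281 ended more than 100 bases before the nearest such end, and 96 more than 100 bases beyond it. The last 30 bases are printed for members whose levels are described below, with the last AATAAA of the window in capitals, or the last ATTAAA where there is none, 5′ to 3′ on the host strand, from the GENCODE M21 transcripts (GRCm38). The first 7 end at most 13 bases from an annotated end of the host (for Scd1, the window is shifted by 3 bases and for Crebzf by 2 to hold the hexamer):
Mis12 (chr11:71027340-71027369, plus strand): ctctatacctgtaataAATAAAtacttcag
Map4k4 (chr1:40026268-40026297, plus strand): gtctgtgacatttgtAATAAAtgtcttgta
Crebzf (chr7:90446072-90446101, plus strand): tgtcatAATAAAatcaggtttgttgatctt
Insig2 (chr1:121304357-121304386, minus strand): aaagcaagatgtATTAAAtatgtaattatc
Dgat2 (chr7:99153658-99153687, minus strand): ctagactAATAAAtggaaacaagaacagcc
Mafg (chr11:120625124-120625153, minus strand): tattttgtatatgatcAATAAAcgcctttt
Scd1 (chr19:44394458-44394487, minus strand): gttcctAATAAAagtggatctggttgtact
The intervals of the next 3 end 126, 1614 and 5229 bases before the nearest annotated end of Creb3l2, Lifr and Taok1, and still hold a hexamer:
Creb3l2 (chr6:37327381-37327410, minus strand): cttattcttcatcatagctaATTAAAtacc
Lifr (chr15:7195846-7195875, plus strand): attataAATAAAccatatccgattgcacat
Taok1 (chr11:77534391-77534420, minus strand): acaagtggaAATAAAttttattataccatg
The last 50 bases of the intervals at Agfg1, which ends at an annotated end, and at Sirt1, 1 base before one, held neither hexamer.

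Across all members whose last 50 bases could be read from a host transcript, 592 of 881 (67.2%) held one of the hexamers AATAAA or ATTAAA. The form AATAAA was found in 470 of them (53.3%), and 122 held the other form alone. Windows of the same length up to the midpoint of the same intervals held either hexamer in 44 of 930 cases (4.73%). The last 50 bases of the longest coding transcript of 19966 coding genes held one in 75.8%. Among members ending within 10 bases of an annotated end the share was 396 of 453 (87.4%), and among those ending more than 100 bases before one it was 113 of 281 (40.2%). The first base of the hexamer lay a median of 20 bases before the interval's end (interquartile range 17 to 23). In the 20 bases after the end, 92 of the 281 early-ending members (32.7%) had at least 12 adenines, against 6 of 278 (2.16%) after the midpoints of the same intervals. A match is a description of letters and does not show that a site is used.

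**Figure D1:**
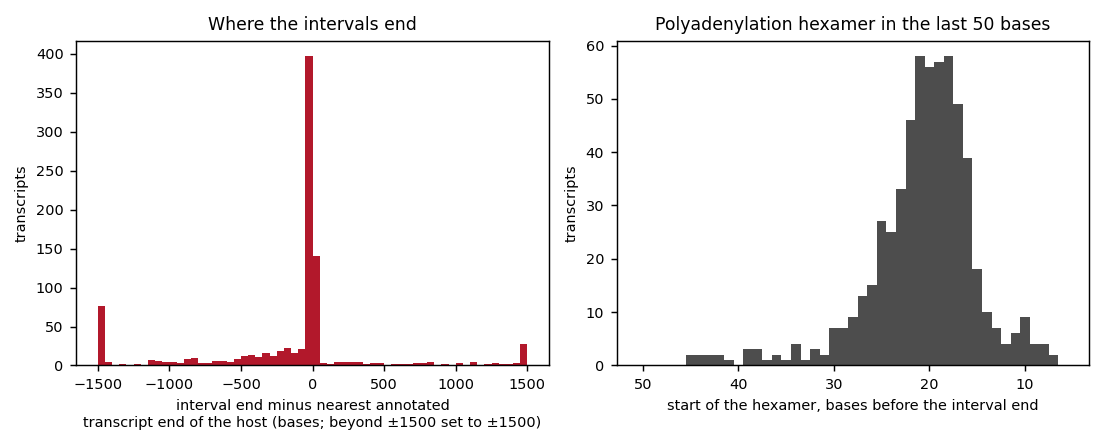
The left plot counts members by the distance of the interval end from the nearest annotated transcript end of the host, in bases, with distances beyond 1500 bases drawn in the outer bars; the tall bars around 0 hold most members. The right plot counts members by the start of the hexamer in bases before the interval end, with a median of 20.

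Library totals worked out from the values were 17.2 to 31.1 M reads, of which 3.03 to 6.26 M fell on listed transcripts. High-fat library 4 lay apart from the rest. In it, 509 members reached 1 FPKM, against 683 to 756 in the other 15 libraries, and members took 4.12% of listed reads, against 6.71% to 11.4%. Over all listed transcripts, 4286 reached 1 FPKM in that library, against 5169 to 6505 in the other 15, so the drop was not confined to members. In 81.4% of the 803 members without the on and off pattern described below, the level in that library was under the mean of the other high-fat libraries, with a median difference of -0.52 on the log2 scale. Where the call of a named member was lost or gained in the fit without that library, this is said below. Coding markers could not be used to check the tissue, since the files list non-coding transcripts. Of 8 hepatocyte markers, Cps1 and Ttr had a listed exonic single-interval transcript, with a mean of at most 0.1002 FPKM. Of stellate markers Col1a1 and Lrat had one (at most 0.105), of cholangiocyte markers Sox9 (0.365) and of lymphocyte markers Ptprc (0.648), and of Kupffer cell, endothelial and erythroid markers none. None of these reached 1 FPKM in 4 libraries.

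The members' median length was 1776.5 bases (211 to 5110), and the median over members of the median reads per library was 111 (5th percentile 5, 95th percentile 1082). Mean levels over the 16 libraries ran between 0.362 and 1348 FPKM, with a median of 3.06. At least 10 FPKM was reached by 184 members and at least 100 FPKM by 8. In all 16 libraries 305 members (32.5%) were at 1 FPKM or more, and 59 were so in exactly 4. Of 15008 member values, 2 were listed at 0.

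The 8 most abundant members lay on genes of lipid metabolism, growth factor binding and transport. At Scd1, the desaturase that makes oleate from stearate, the member (NONMMUT034843.2, chr19:44394455-44397265) had 701, 489, 391 and 1515 FPKM with resveratrol, 758, 516, 2663 and 230.5 FPKM with metformin, 1832, 2322, 2256 and 702 FPKM on high-fat feed and 2476, 2231, 1168 and 1316 FPKM on ordinary feed. Its levels overlapped between all groups and differed up to 11.6-fold within the metformin group, where library 3 was highest and library 4 lowest. At Igfbp4, whose secreted product binds insulin-like growth factors, the member (NONMMUT011946.2, chr11:99051575-99052641) averaged 398 ± 55.6, 410.3 ± 37.8 and 425 ± 45.9 FPKM with resveratrol, with metformin and on high-fat feed, and 321 ± 17.98 FPKM on ordinary feed (SD, n = 4 each). The high-fat libraries had 363 to 469 FPKM and the ordinary-feed libraries 305 to 337 FPKM, and the comparison did not pass the test (log2 fold change 0.40, SE 0.14, limma adjusted p = 0.0606), though it did with median-ratio scaling (log2 fold change 0.68, limma adjusted p = 0.0274). Next came Pigr, the epithelial receptor that carries IgA, Sult2a8, a sulfotransferase of bile acid metabolism, Fads2, a fatty acid desaturase, Dgat2, Slc25a39, a mitochondrial carrier, and Insig2, with means over all libraries of 257, 248, 234, 165, 139 and 125 FPKM. Of these 8, only Dgat2 and Insig2 passed a test in any comparison.

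High-fat feed alone was first set against ordinary feed, the test of the diet itself. Members at genes of triglyceride synthesis (Dgat2), cholesterol transport (Stard4) and secretion (Creb3l2) were higher on high-fat feed, and members at Mis12, Agfg1, Map4k4, Crebzf and Insig2 were lower. In all, 37 of 938 members (3.94%) passed an adjusted p of 0.05 in limma, 8 higher and 29 lower. Over all 7413 features tested, the background was 14.6% called, with 2.83% higher and 11.8% lower. Among these features the members' share was thus below the background in both directions. With no level filter it was 0.959%, against 0.548% of the 49988 features then tested. That background includes features under the level filter, which all members passed, so these shares are not of like sets. The standard error of the log2 fold change had a median of 0.32 over members and 0.17 over all features, so a change of a given size passed less readily in members. At an unadjusted p under 0.05 there were 137 members (14.6%), against a background of 32.2%. In 32 of the 37 (3.41% of members) the libraries of the groups did not overlap, against a background of 12.5% of all features that were called with no overlap.

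The median log2 fold change was -0.14 over members and -0.16 over all features tested. Scaling the libraries to a common median ratio moved the median of all features to -0.0015. On that scale the members' calls were 31 higher and 10 lower, and those of all features 447 higher and 366 lower, so the balance of directions rests on the scale. Of the 37 calls, 18 were shared with that scale, all 8 higher ones and 10 of the 29 lower ones. With the fourth high-fat library left out and no scaling, 15 members were higher and 10 lower, against 183 higher and 422 lower over all features, and 16 of the 37 calls were among them. None of the 37 changes turned its sign under any of 22 alternatives, and values below are on the deposited scale.

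Among the members that rose, the one at Stard4 (NONMMUT031869.2, on chromosome 18), a protein that carries cholesterol between membranes, had 25.7, 20.5, 24.4 and 17.8 FPKM on high-fat feed, against 7.90, 7.005, 8.07 and 10.4 FPKM on ordinary feed. The groups did not overlap (log2 fold change 1.31, SE 0.21, limma adjusted p = 0.00301). With resveratrol it had 13.4, 15.7, 12.3 and 20.3 FPKM and with metformin 23.3, 29.5, 16.5 and 19.98 FPKM, in all 8 libraries above each ordinary-feed library.

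At Creb3l2, a membrane-bound transcription factor of the secretory pathway, the member (NONMMUT056402.2, chr6:37327381-37331285) had 8.10, 7.36, 7.55 and 8.86 FPKM on high-fat feed, against 2.94, 3.47, 2.90 and 3.65 FPKM on ordinary feed. Each high-fat value was more than any ordinary-feed value (log2 fold change 1.08, SE 0.14, limma adjusted p = 0.000769). The resveratrol libraries had 5.31, 4.52, 5.89 and 5.86 FPKM and the metformin libraries 6.18, 5.55, 4.74 and 7.48 FPKM, again above every ordinary-feed library.

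At Dgat2, the enzyme of the last step of triglyceride synthesis, the member (NONMMUT062889.2, chr7:99153658-99154351) had 213, 179, 186 and 219 FPKM on high-fat feed, against 105, 108, 113 and 122 FPKM on ordinary feed. The groups did not overlap (log2 fold change 0.82, SE 0.18, limma adjusted p = 0.0124). The member at Lifr, the receptor of leukaemia inhibitory factor, averaged 35.3 ± 6.20 FPKM on high-fat feed and 21.0 ± 3.73 FPKM on ordinary feed (SD, n = 4 each; log2 fold change 0.72, SE 0.19, limma adjusted p = 0.0264). Fits without high-fat library 2 or 3, or without ordinary-feed library 1 or 3, did not call it (limma adjusted p of 0.0509 to 0.0666 in those fits).

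The remaining members that rose lay at Tef, a clock-controlled transcription factor, Klhl21, an adaptor of a ubiquitin ligase, Gda, the guanine deaminase, and Mafg, a small Maf protein that pairs with the antioxidant factor Nrf2. Tef (NONMMUT024336.2) averaged 2.85 ± 0.622 FPKM on high-fat feed and 1.32 ± 0.607 on ordinary feed. Klhl21 (NONMMUT050780.2) averaged 22.7 ± 2.48 and 13.6 ± 2.33 FPKM, Gda (NONMMUT034143.2) 2.29 ± 0.602 and 1.11 ± 0.0743 FPKM, and Mafg (NONMMUT013120.2) 21.6 ± 2.78 and 14.2 ± 1.40 FPKM on high-fat and on ordinary feed (SD, n = 4 each). Their log2 fold changes were 0.75, 0.71, 0.63 and 0.57, with limma adjusted p of 0.0209, 0.0216, 0.0168 and 0.0269. In each of them the groups did not overlap. In fits that left out 1 library, the call at Tef was lost without high-fat library 4 or ordinary-feed library 1, 2 or 3 (limma adjusted p of 0.0510 to 0.0553). That at Klhl21 was lost without ordinary-feed library 1 or 2 (0.0544 and 0.0610), and that at Mafg without high-fat library 1 or ordinary-feed library 1 or 2 (limma adjusted p of 0.0512 to 0.0736). The calls at Gda, Stard4, Creb3l2 and Dgat2 held in all 16 such fits. With no level filter, which raises the number of features tested to 49988, those at Gda (limma adjusted p = 0.0821) and Dgat2 (0.0607) were lost, and of the 8 that rose only Stard4 and Creb3l2 were called.

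**Figure D2:**
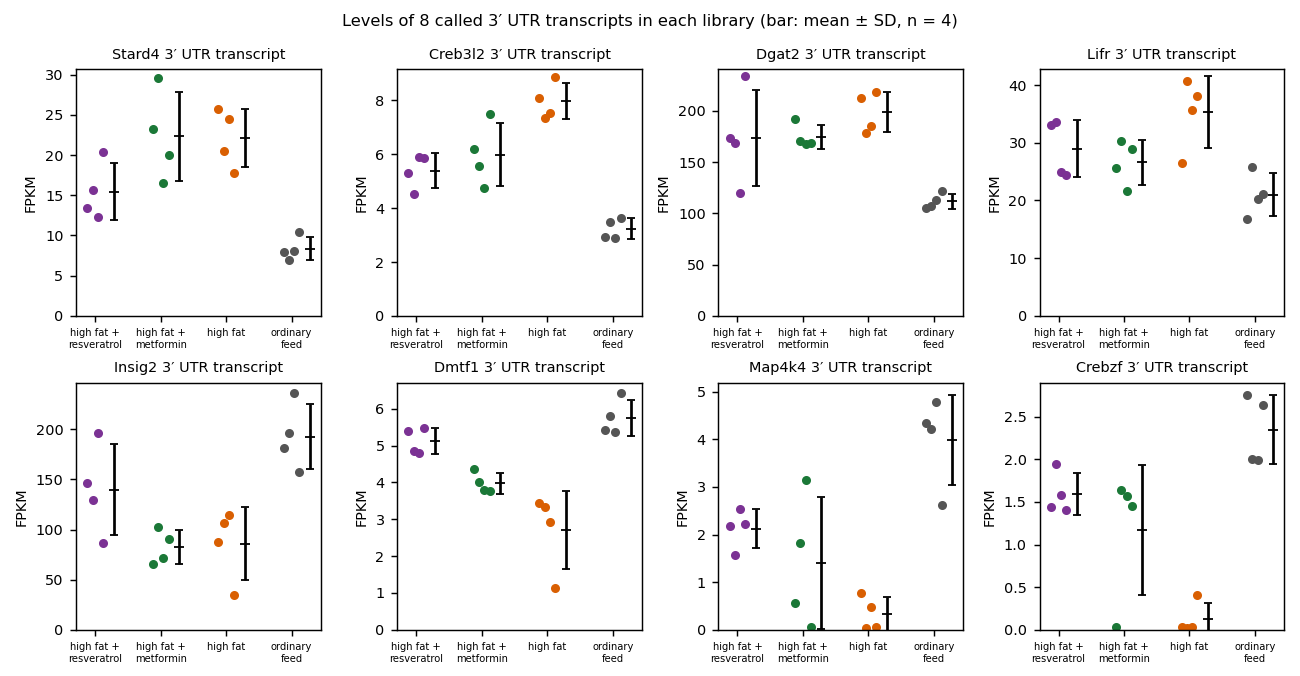
FPKM of 8 members that passed the test between high-fat and ordinary feed, 1 point per library in each group, with the mean and SD of 4 libraries as a bar (cut at 0 where the SD exceeds the mean). The upper row shows members higher on high-fat feed and the lower row members lower on it, with library 4 the lowest high-fat point at Insig2 and Dmtf1.

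Members that fell were led by Mis12, a subunit of the kinetochore. Its member (NONMMUT010559.2, chr11:71025492-71027369) had 0.211, 0.137, 0.163 and 0.121 FPKM on high-fat feed, against 4.57, 4.67, 6.36 and 7.59 FPKM on ordinary feed. Behind these were 9, 8, 7 and 5 reads in the high-fat libraries and 148, 225, 251 and 287 reads in the ordinary-feed libraries (log2 fold change -2.53, SE 0.26, limma adjusted p = 0.000171). The groups lay far apart with no value between.

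At Agfg1, which encodes a protein of vesicle traffic, the member (NONMMUT001706.2, chr1:82896322-82901182) had 0.0908, 0.112, 0.0360 and 0.0563 FPKM on high-fat feed and 2.42, 2.35, 2.73 and 3.52 FPKM on ordinary feed (log2 fold change -1.80, SE 0.12, limma adjusted p = 1.78e-06). The reads were 10, 17, 4 and 6 on high-fat feed and 203, 293, 279 and 345 on ordinary feed. All 12 libraries of the high-fat diets, drugs included, stood at 0.140 FPKM or less. It was the 1 member that reached 1 FPKM in a single group, so the level filter admitted it through ordinary feed alone and its difference is no independent support.

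At Map4k4, a kinase upstream of JNK, the member (NONMMUT000701.2, chr1:40025391-40026297) had 0.778, 0.0354, 0.482 and 0.0503 FPKM on high-fat feed, against 4.35, 4.21, 4.78 and 2.63 FPKM on ordinary feed. High-fat libraries 2 and 4 held 1 read each, and no high-fat value reached the lowest ordinary-feed value (log2 fold change -1.92, SE 0.33, limma adjusted p = 0.00437). With resveratrol it had 2.19, 1.56, 2.54 and 2.21 FPKM and with metformin 0.562, 1.81, 3.16 and 0.0496 FPKM, the metformin values being spread over the whole range.

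At Crebzf, a basic leucine zipper protein, the member (NONMMUT062675.2, chr7:90444860-90446103) had 0.0355, 0.0258, 0.0352 and 0.403 FPKM on high-fat feed, against 2.75, 2.01, 1.99 and 2.64 FPKM on ordinary feed. High-fat libraries 1 to 3 held 1 read each and library 4 held 11 (log2 fold change -1.58, SE 0.24, limma adjusted p = 0.00247). All 4 resveratrol libraries, at 1.40 to 1.95 FPKM, and metformin libraries 2 to 4, at 1.45 to 1.64 FPKM, lay above each high-fat library, while metformin library 1 had 0.0342 FPKM. Against high-fat feed neither drug passed the test at Crebzf (limma adjusted p = 0.0701 with resveratrol and 0.293 with metformin).

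At Insig2, which holds the cholesterol sensor of the endoplasmic reticulum in place, the member (NONMMUT002394.2, chr1:121304357-121305112) had 87.9, 106, 115 and 34.4 FPKM on high-fat feed, against 181, 196, 236 and 158 FPKM on ordinary feed. The groups did not overlap, and high-fat library 4 was lowest (log2 fold change -1.28, SE 0.34, limma adjusted p = 0.0257). It was not called without ordinary-feed library 2 or 3 (limma adjusted p of 0.0596 and 0.0656), and without high-fat library 4 the log2 fold change was -0.89 (limma adjusted p = 0.0411). With median-ratio scaling and high-fat library 4 left out, the call was lost (limma adjusted p = 0.0875). It was also lost with no level filter (limma adjusted p = 0.107) and in a fit of the 2 feeds alone (0.0795). At Dmtf1, a transcription factor of the Arf and p53 pathway, the member (NONMMUT051208.2, chr5:9118107-9120833) had 3.43, 3.32, 2.94 and 1.14 FPKM on high-fat feed and 5.42, 5.82, 5.38 and 6.43 FPKM on ordinary feed (log2 fold change -0.92, SE 0.18, limma adjusted p = 0.00858). Without high-fat library 4 it was -0.68 (limma adjusted p = 0.00291). Exons of Tmem243 cover 21.7% of that interval. At Pspc1, a protein of nuclear paraspeckles, the member (NONMMUT021042.2) averaged 0.432 ± 0.357 FPKM on high-fat feed and 1.37 ± 0.263 FPKM on ordinary feed (SD, n = 4 each; log2 fold change -0.75, SE 0.16, limma adjusted p = 0.00993). Calls at Mis12, Map4k4, Crebzf, Dmtf1 and Pspc1 held in all 16 fits that left out 1 library. That at Agfg1 did too, but the features tested were chosen once, on all 16 libraries. Ordinary feed alone admitted Agfg1, so its held call is no independent support. In a fit of the 2 feeds alone the calls at Dmtf1 (limma adjusted p = 0.0545) and Pspc1 (0.0522) were lost, as was that at Insig2.

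Further members that fell lay at a pair of cargo receptors of the early secretory pathway, Tmed5 (log2 fold change -1.19) and Tmed4 (-0.67), at the Hippo pathway scaffold Wwc2 (-1.08), at the synaptic and adhesion scaffold Ppfia1 (-0.85), at the peroxisomal membrane protein Pxmp4 (-0.66), at the adaptor Crkl (-0.65), at Fam193a (-0.62) and at the transcription factor Mef2d (-0.61), with limma adjusted p between 0.0242 and 0.0463. At Wwc2 the high-fat libraries had 2.46, 0.0377, 2.29 and 0.0535 FPKM, against 2.63 to 3.34 FPKM on ordinary feed, with libraries 2 and 4 lowest. Of the 16 fits that left out 1 library, the call was lost in 13 at Wwc2, in 12 at Tmed5, in 12 at Pxmp4, in 11 at Ppfia1 and in 9 at Crkl, with limma adjusted p of 0.05003 to 0.123. It was lost without high-fat library 4 and without ordinary-feed library 3 at Tmed4, Fam193a and Mef2d, and also without ordinary-feed library 1 or 4 at Tmed4, 2 at Fam193a and 1 at Mef2d (limma adjusted p of 0.0524 to 0.0856). Without high-fat library 4 the log2 fold changes at Tmed5, Wwc2, Ppfia1, Pxmp4 and Crkl were -0.83, -0.80, -0.76, -0.58 and -0.47. None of these was called in that fit (limma adjusted p of 0.12, 0.123, 0.116, 0.0816 and 0.0996). Of the members from Tmed5 to Mef2d, median-ratio scaling ended the calls at all but Fam193a, and it ended that at Sod2 (limma adjusted p of 0.0647 to 0.235). Another 13 members fell by 0.37 to 0.59 on the log2 scale, at Ranbp10, Mef2a, Atrn, Chd1, Mplkip, Foxp2, Epb41, Glce, Zfp710, Mrs2, Bcl7a, Rbm33 and Zfp568, and 1 at Sod2 is given with its list. Of these 13, only Chd1 and Atrn stayed called without high-fat library 4, and the same pair with median-ratio scaling.

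**Figure D3:**
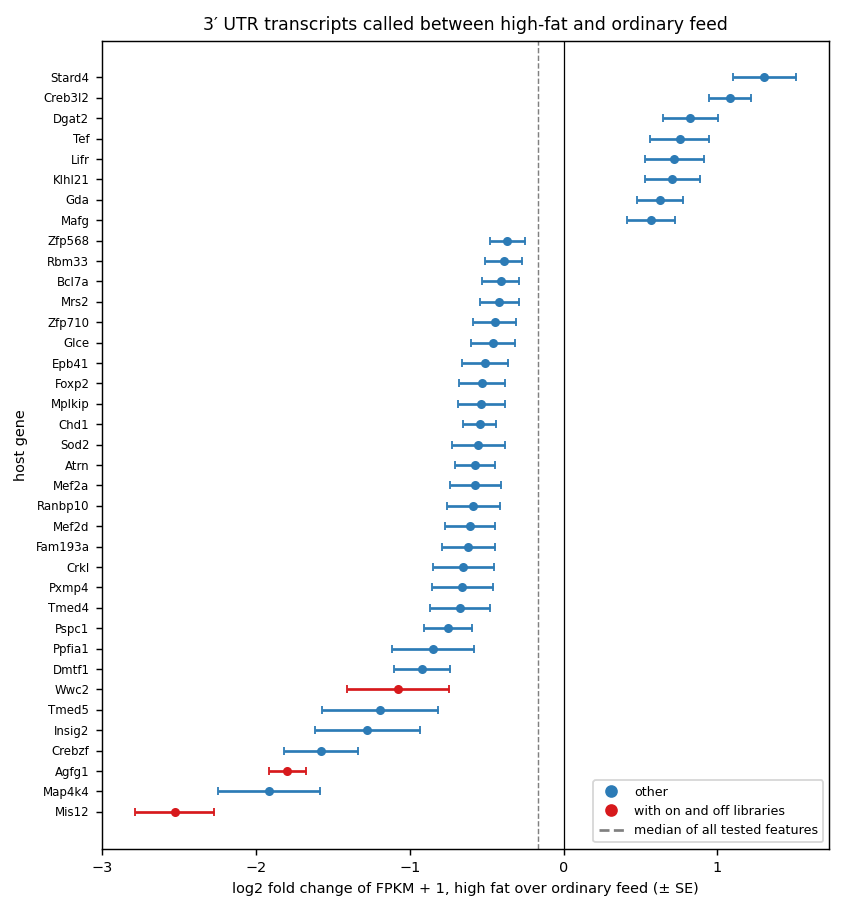
Log2 fold change of FPKM + 1 for the 37 called members, high fat over ordinary feed, with its SE as a bar; the dashed line is the median of all tested features, -0.16. The 8 higher members run up to 1.31 at Stard4 and the 29 lower ones down to -2.53 at Mis12, and the 3 in red have on and off libraries.

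Both drug groups were compared with high-fat feed alone, and both comparisons use the same 4 high-fat libraries. The labels name gavage in the drug groups only, so a drug cannot be told apart from its gavage. With resveratrol, 1 of 938 members (0.107%) passed the test, against a background of 0.0809% of all features (0.0674% higher and 0.0135% lower). With metformin, 1 of 938 passed, against a background of 0.0270% (0.0135% higher and 0.0135% lower). In both it was the member at Mis12, which had 4.86, 6.20, 8.90 and 6.58 FPKM with resveratrol and 8.40, 5.23, 2.45 and 7.02 FPKM with metformin, against 0.121 to 0.211 FPKM on high-fat feed. Neither drug group overlapped with high-fat feed. The values were log2 fold change 2.70, SE 0.26, limma adjusted p = 0.000224 with resveratrol and log2 fold change 2.45, SE 0.26, limma adjusted p = 0.000762 with metformin. At an unadjusted p under 0.05 there were 75 members with resveratrol, against a background of 16.2%, and 44 with metformin, against a background of 7.47%; the members' shares were 7.996% and 4.69%. The median log2 fold change was 0.17 over members and 0.13 over all features with resveratrol, and 0.08 over members and 0.07 over all features with metformin. Mis12 is a member with on and off libraries, and without such members no call remained for either drug.

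Against ordinary feed, 1 of 938 members passed with resveratrol, against a background of 0.283% (0.148% higher and 0.135% lower). With metformin 3 of 938 passed, against a background of 0.297% (0.0944% higher and 0.202% lower). These comparisons and that of high-fat feed use the same 4 ordinary-feed libraries. Between a drug group and ordinary feed, the feed, the drug and the labelled gavage differ at once. Agfg1, which the level filter admitted through ordinary feed alone, is the 1 call with resveratrol and 1 of the 3 with metformin, so these calls are no independent support. It had 0.0875, 0.103, 0.0988 and 0.0808 FPKM with resveratrol and 0.0787, 0.140, 0.0892 and 0.0647 FPKM with metformin, against 2.35 to 3.52 FPKM on ordinary feed. The values were log2 fold change -1.77, SE 0.12, limma adjusted p = 2.17e-06 with resveratrol and log2 fold change -1.77, SE 0.12, limma adjusted p = 2.18e-06 with metformin. With metformin, Stard4 was higher than on ordinary feed (log2 fold change 1.30, SE 0.21, limma adjusted p = 0.0191), and so was Creb3l2 (log2 fold change 0.71, SE 0.14, limma adjusted p = 0.048). With resveratrol the log2 fold changes over ordinary feed were 0.80 at Stard4 and 0.59 at Creb3l2, with limma adjusted p of 0.109 and 0.0765. The call at Stard4 was lost without metformin library 1, 2 or 4 and without ordinary-feed library 2 or 3 (limma adjusted p of 0.0546 to 0.0777), and that at Creb3l2 in 11 of 16 fits that left out 1 library (0.0512 to 0.127). At an unadjusted p under 0.05 there were 81 members (8.64%) with resveratrol, against a background of 13.2%, and 92 (9.81%) with metformin, against a background of 20.1%. With the fourth high-fat library left out of the fit, 16 members (1.71%) were called with metformin, against 260 of all features (3.51%).

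Of 259 genes in 10 lists of liver pathways, 38 hosted at least 1 member. Of 28 lipogenesis genes, 6 hosted 1 member each (Dgat2, Fads2, Fasn, Insig2, Lpin1 and Scd1); on high-fat feed 1 rose, 1 fell and the median log2 fold change was 0.40. Of 29 cholesterol genes, Stard4, which rose, and Sc5d, an enzyme late in cholesterol synthesis, hosted members. The Sc5d member had 20.6, 21.9, 23.9 and 0.0641 FPKM on high-fat feed, against 15.6, 11.4, 12.2 and 12.3 FPKM on ordinary feed. High-fat libraries 1 to 3 lay above all ordinary-feed libraries and library 4 held 4 reads (log2 fold change -0.37, SE 0.72, limma adjusted p = 0.751). Without that library the sign turned and Sc5d passed, with a log2 fold change of 0.74 (limma adjusted p = 0.00705). Of 20 clock genes, Hlf, Rora and Tef hosted members, of which Tef rose.

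None of the 6 members at insulin and glycogen genes (Foxo1, Insr and Irs1 among the hosts, of 32 genes listed) passed a test, and their median log2 fold change on high-fat feed was 0.09. The member at Insr, the insulin receptor, averaged 27.2 ± 5.02 FPKM on high-fat feed and 31.1 ± 2.77 FPKM on ordinary feed (SD, n = 4 each; log2 fold change -0.20, SE 0.16, limma adjusted p = 0.407). None of the 14 members at 13 of 42 genes of RNA-binding proteins and 3′ end processing passed a test, with a median of -0.22. The most abundant of them, at Celf1, a regulator of splicing and decay, averaged 23.7 ± 1.95 FPKM on high-fat feed and 26.0 ± 1.88 FPKM on ordinary feed (SD, n = 4 each). Members at Acsl4 and Acsl5, of 26 fatty acid oxidation genes, and at Camkk2 and Sirt1, of 22 energy-sensing genes, did not pass. Medians over only 2 members each were -0.23 and -0.76, and Acsl4 and Sirt1 had the on and off pattern described below. Of all members 3.94% were called between the feeds, with a median of -0.14. Lists this small would often hold no call at that share, so their lack of calls says nothing particular about them.

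Of 23 antioxidant and endoplasmic reticulum stress genes, 4 hosted 5 members, of which 1 fell on high-fat feed, with a median log2 fold change of -0.56. It lay at Sod2, the mitochondrial superoxide dismutase, and averaged 8.58 ± 2.23 FPKM on high-fat feed and 12.9 ± 1.63 FPKM on ordinary feed (SD, n = 4 each; log2 fold change -0.56, SE 0.17, limma adjusted p = 0.0421). Its groups overlapped, and the call was lost in 12 of the 16 fits that left out 1 library (limma adjusted p of 0.0503 to 0.0999). The fit without high-fat library 4 was among these (log2 fold change -0.42, limma adjusted p = 0.0884). Adding the reads of overlapping listed transcripts also ended the call. The other Sod2 member (NONMMUT028277.2), which overlaps the first, averaged 28.4 ± 6.85 and 31.4 ± 2.61 FPKM on high-fat and on ordinary feed and did not pass (limma adjusted p = 0.542). No gene of 22 bile acid and drug metabolism genes or of 15 inflammation genes hosted a member. In the other 4 comparisons, of the members in these lists only that at Stard4 passed, with metformin against ordinary feed.

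Many members were either clearly present or nearly absent in a library, with nothing between. A member was said to have on and off libraries where the largest gap between its sorted log2(FPKM + 0.1) values was at least 3 (8-fold) and at least 2 libraries lay on each side. By this rule 135 of 938 members (14.4%), on 135 different hosts, had on and off libraries. Among single-interval NONCODE transcripts that passed the same level filter, 2 of 2379 in introns (0.0841%) and 13 of 902 between genes (1.44%) did, as did 4 of 192 in other exons (2.08%) and, among NONCODE transcripts of several parts, 50 of 1297 (3.86%). Of transcripts with a mean of at least 2 FPKM, the shares were 112 of 595 (18.8%) in 3′ UTRs, 0 of 700 in introns and 12 of 371 (3.23%) between genes. A gap of at least 4 was found in 65 members, and without the fourth high-fat library 146 members had on and off libraries.

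Within these 135 members, the median on level was 6.51 FPKM and the median off level 0.123 FPKM. The highest median over the off libraries of a member was 2.33 FPKM, so off means low beside the on libraries and not always nearly absent. The median ratio of the levels was 52.3 and ran between 16.1 and 580.3. Among the on libraries of a member, the highest value was a median of 1.61 times the lowest. None of the 805 off values was 0, and they rested on a median of 4 reads (1 to 105), against 271 (14 to 10651) for on values. Adding the reads of overlapping listed single-interval transcripts left 124 such members, 123 of them among the 135.

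**Figure D4:**
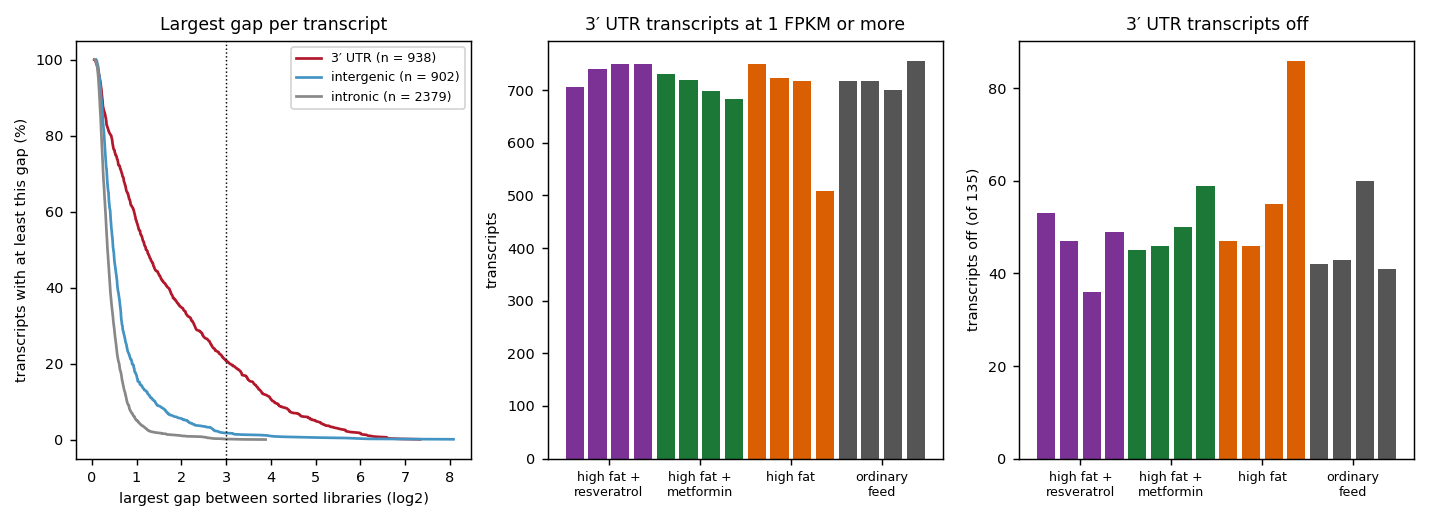
The left plot gives, for each gap between neighbouring sorted libraries in log2 units, the percent of transcripts with a gap at least that large, in 3′ UTRs, between genes and in introns; the dotted line marks a gap of 3, and members that are low or high in 1 library alone count here. The other plots show members at 1 FPKM or more and members off in each library, with the fourth high-fat library at 509 and 86.

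Off libraries were mostly mixed with on libraries inside a group. In 133 of the 135 members at least 1 group held both on and off libraries, in 35 all 4 groups did, and 62 were off in at least 1 library of each group. The exceptions were Mis12, off in the 4 high-fat libraries, and Agfg1, off in the 12 libraries of the high-fat diets. Of the values of these 135 members, 34.3% were off with resveratrol, 37.0% with metformin, 43.3% on high-fat feed and 34.4% on ordinary feed. High-fat library 4 was off in 86 members, against 36 to 60 in the other libraries, and without it the high-fat share was 36.5%. A further 57 members were low in 1 library alone, and in 34 of these it was high-fat library 4. Only 3 of the 37 members called between high-fat and ordinary feed had on and off libraries (Mis12, Agfg1 and Wwc2), and the median standard error was 0.76 in members with them and 0.26 in the others.

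**Figure D5:**
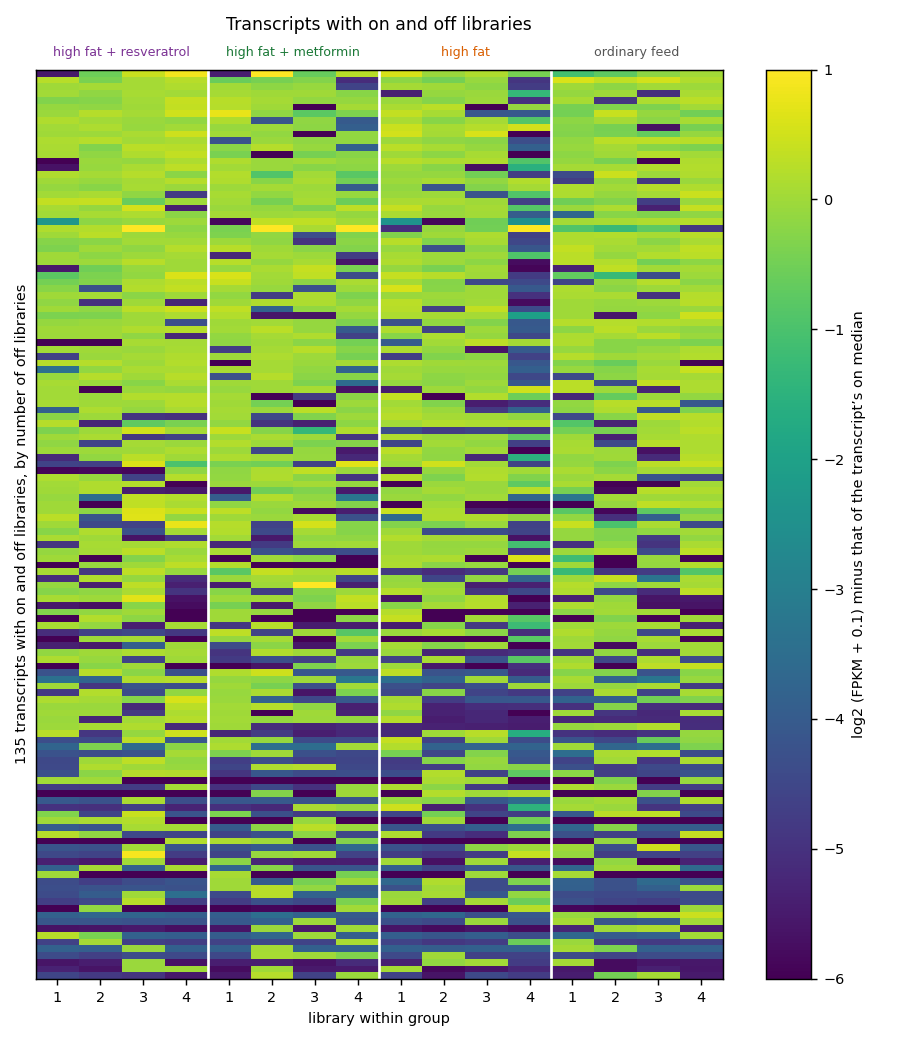
Each row is 1 of the 135 members with on and off libraries and each column 1 library; colour gives log2(FPKM + 0.1) minus that of the member's median on level. Rows run from few off libraries at the top to 12 at the bottom, and dark cells fall in all 4 groups, most often in the fourth high-fat library.

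Sirt1, the deacetylase often studied with resveratrol, was off in 5 libraries. Its member (NONMMUT005901.2, chr10:63319059-63320690) had 3.01, 4.06, 0.0883 and 3.75 FPKM with resveratrol, 4.12, 0.0695, 3.77 and 2.95 FPKM with metformin, 3.595, 0.0788, 0.0804 and 0.0558 FPKM on high-fat feed and 3.30, 2.91, 3.18 and 3.68 FPKM on ordinary feed. The off libraries held 2 to 4 reads and the on libraries 93 to 159, and every on value lay between 2.91 and 4.12 FPKM. High-fat feed was off in 3 of 4 libraries and ordinary feed in none, and the comparison did not pass the test (log2 fold change -1.47, SE 0.59, limma adjusted p = 0.1).

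At Gsr, glutathione reductase, the member (NONMMUT065156.2, chr8:33697247-33698161) had 0.103, 33.5, 35.8 and 0.143 FPKM with resveratrol, 31.9, 35.5, 0.142 and 34.9 FPKM with metformin, 0.145, 0.105, 0.287 and 19.8 FPKM on high-fat feed and 34.3, 30.5, 36.4 and 0.163 FPKM on ordinary feed. On libraries held 397 to 734 reads and off libraries 2 to 6, and both kinds were found in each group. At Pum2, an RNA-binding protein that represses translation, the member (NONMMUT013377.2, chr12:8751729-8752552) was on in 4 libraries, at 12.6 FPKM in resveratrol library 3, 11.7 and 13.4 FPKM in high-fat libraries 2 and 3 and 13.6 FPKM in ordinary-feed library 1. The other 12 libraries had 0.142 to 0.387 FPKM. At Atf6, a sensor of stress in the endoplasmic reticulum, the member (NONMMUT003741.2, chr1:170704756-170707313) was on in metformin library 3, high-fat library 3 and ordinary-feed libraries 1 and 4, at 4.40 to 4.80 FPKM, and at 0.113 to 0.222 FPKM in the rest.

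The member at Acsl4, an enzyme that activates arachidonic acid, was off in resveratrol library 1 (0.117 FPKM), high-fat library 4 (0.0677 FPKM) and ordinary-feed library 1 (0.144 FPKM). In the other 13 libraries it had 6.88 to 13.0 FPKM. The member at Taok1, a kinase of stress signalling, was on in resveratrol libraries 3 and 4, metformin library 2 and high-fat library 1, at 12.1 to 12.9 FPKM, and off in the other 12 libraries. Taok1, and the hosts named next, were chosen after their values were seen.

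Where a host carried several members, the off state of one was not always shared by the next. On 15 hosts, 16 pairs joined a member with on and off libraries to one without, and no pair joined such members to each other. Between the off and the on libraries of the first, the mean level of the other had a median ratio of 0.911, and in 10 of 16 pairs it lay between 0.8 and 1.25. These were 4 of the 6 pairs whose intervals overlap and 6 of the 10 whose intervals do not. At Eif4ebp2, which encodes an inhibitor of translation initiation, a member of 4069 bases (NONMMUT005824.2) had 62.3 to 84.1 FPKM in 6 libraries and 0.234 to 0.426 FPKM in 10. An overlapping member of 375 bases (NONMMUT005823.2) averaged 1.39 FPKM in those 10 and 1.43 FPKM in those 6.

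At Zfp652, a zinc finger gene, the middle one of 3 members (NONMMUT011659.2) had 2.91 to 5.22 FPKM in 5 libraries and 0.0670 to 0.137 FPKM in 11. The member before it (NONMMUT011658.2) averaged 10.2 FPKM in those 11 libraries and 8.79 FPKM in those 5, and the one after it (NONMMUT011660.2), which overlaps it, 11.2 and 10.9 FPKM. The opposite was seen at Maf, a transcription factor, where a member of 1544 bases (NONMMUT067324.2) was off in metformin libraries 2 and 3 and ordinary-feed library 2. A member that overlaps it (NONMMUT067323.2) averaged 0.0665 FPKM in those 3 libraries and 1.29 FPKM in the other 13. At Ppm1l, a protein phosphatase, the members do not overlap. NONMMUT043457.2 averaged 0.119 FPKM in the 2 libraries where NONMMUT043456.2 was off and 1.22 FPKM in the other 14.

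Members with on and off libraries were also compared with the others in position and sequence. Of the 135, 85 (63.0%) ended within 10 bases of an annotated end of the host, against 381 of 803 (47.4%) others. The last 50 bases held a hexamer in 98 of 132 (74.2%), against 494 of 749 (66.0%) others. Median GC content was 41.2% in them and 41.5% in the others. The AU-rich pentamer ATTTA, a motif of unstable messages, was found a median of 2.17 times per kb in them and 1.82 times per kb in the others. In bulk liver RNA, fewer cells that hold a transcript and less of it per cell cannot be told apart.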

How the data were processed

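RNA was measured by sequencing of 16 mouse liver libraries, 4 in each of 4 diet groups, which were assigned by the diet label. The authors deposited 1 table per library with FPKM values for the listed transcripts, their lengths and their intervals. Bowtie 0.12.2, Cufflinks 2.1.1 and GRCm38 are named in the submitters' processing notes; for the annotation release, the use of strand and any filter, details were not given in the sources used here. Within a library, FPKM multiplied by length came in whole multiples of a single step for at least 99.997% of values (tolerance 0.05), which gave read numbers and library totals of 17.2 to 31.1 M reads; the printed errors are the spread between libraries, which includes counting error.

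Intervals were placed on GENCODE M21 genes. Ensembl transcripts were summed per gene, features with 1 FPKM in at least 4 libraries were kept (7413), and limma 3.58.1 in R 4.3.3 was fitted with a mean-variance trend to log2(FPKM + 1) over the 16 libraries (12 residual degrees of freedom). Fold changes are on that scale, which understates those of low transcripts. P-values were adjusted by the Benjamini-Hochberg method over all features, and a feature was called at an adjusted p under 0.05. The procedure was tested on simulated data.

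Named members were those called (all that rose and the 15 lowest that fell with high-fat feed, and up to 6 per direction elsewhere), the 8 most abundant, the called and the most abundant member of each of 10 gene lists, and the 4 list members off in most libraries. Members, lists and tests were chosen with earlier results of these data known. Alternatives were another pseudocount (0.1), no level filter, median-ratio scaling, the same without high-fat library 4, a fit of the 2 groups alone, reads of overlapping transcripts added, a 90% exonic share, and each library left out.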

Additional observations from a re-analysis of the deposited data

Results flagged for a closer look

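In 168 groups of 4 values (the members' summaries and 39 named members), 21 held 1 library far from the other 3. The limit used flags about 1 in 20 groups of normally distributed values. Pum2, Atf6, Gsr and Sirt1 were named for their off libraries, so that rate is no yardstick for this count. The fourth high-fat library was apart in the number of members at 1 FPKM (509, against 717 to 750 in the other high-fat libraries) and in the members' share of listed reads (4.12%, against 9.73% to 10.8%). In ordinary-feed library 3, 60 members were off, against 41 to 43 in the others of that group.

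Members with on and off libraries account for many of these groups. At Pum2, resveratrol library 3 (12.6 FPKM) and ordinary-feed library 1 (13.6 FPKM) stood alone as on. At Atf6, metformin library 3 (4.49 FPKM) and high-fat library 3 (4.40 FPKM) did. At Gsr, metformin library 3 (0.142 FPKM) and ordinary-feed library 4 (0.163 FPKM) stood alone as off, and high-fat library 4 (19.8 FPKM) alone as on. At Sirt1, high-fat library 1 (3.595 FPKM) stood alone as on.

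Among members outside that set, Crebzf was apart in metformin library 1 (0.0342 FPKM, against 1.45 to 1.64) and in high-fat library 4 (0.403 FPKM, against 0.0258 to 0.0355). Sc5d had 0.0641 FPKM in high-fat library 4, against 20.6 to 23.9 in the other high-fat libraries. Smaller gaps were found at Pspc1 in resveratrol library 3 (0.865 FPKM), at Mafg in resveratrol library 4 (25.2 FPKM), at Celf1 in resveratrol library 1 (21.2 FPKM), at Mef2d in metformin library 4 (3.33 FPKM), at Dgat2 in metformin library 1 (192 FPKM), at Klhl21 in high-fat library 1 (26.4 FPKM) and at Fam193a in ordinary-feed library 2 (4.24 FPKM). The causes were not tested.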

How the results depend on the processing

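The direction of all 37 calls between high-fat and ordinary feed, and of the calls in the other comparisons, held under each of 22 alternatives, while that of Sc5d, which did not pass, turned without high-fat library 4 (0.74) and with scaling besides (0.88), and those of Insr, Celf1 and the second Sod2 member, which did not pass either, turned with scaling. The calls at Agfg1, Creb3l2, Crebzf, Map4k4, Mis12 and Stard4 between high-fat and ordinary feed also held, as did those at Mis12 with either drug against high-fat feed and at Agfg1 with either drug against ordinary feed. Those at Agfg1 are no independent support, since ordinary feed alone admitted it as a member and the members were kept fixed. For high-fat against ordinary feed, 37 members (3.94%) were called, against 1085 of 7413 features (14.6%). With no level filter there were 9 (0.959%), against 274 of 49988 features (0.548%). That background includes features under the level filter, which all members passed, so these shares are not of like sets. A fit of the 2 groups alone called 11 members (449 of all features). With 1 library left out there were between 19 (without ordinary-feed library 3) and 57 (without high-fat library 1), against 539 to 1181 of all features. Without ordinary-feed library 1 or 2 there were 22 and 20. Against high-fat feed, resveratrol had 2 calls in a fit of its 2 groups (4 of all features) and 1 to 3 with 1 library left out (3 without resveratrol library 4; 1 to 57 of all features), and metformin 2 with scaling and high-fat library 4 left out (10 of all features) and 1 to 2 with 1 library left out (1 to 9). Against ordinary feed, resveratrol had 4 calls with scaling and high-fat library 4 left out (61 of all features), 4 in a fit of its 2 groups (18) and 1 to 3 with 1 library left out (1 to 38). Metformin had 1 call with no level filter (7 of 49988 features), 6 with scaling (60 of all features) and 16 with scaling and high-fat library 4 left out (175). With 1 library left out it had 1 to 16 (2 to 260 of all features). There were 16 without high-fat library 4 and 7 without resveratrol library 4. Leaving out members with on and off libraries, an alternative chosen after seeing the data, left 0 calls for resveratrol against high-fat feed, 0 for metformin against high-fat feed and 0 for resveratrol against ordinary feed. A gap of at least 4 left 65 members with on and off libraries; leaving out high-fat library 4, also chosen after seeing the data, gave 146. Within 100 bases of the end, 69.8% of members held a hexamer. The causes were not tested. No paired analysis was possible because the labels give no replicate numbers that tie samples of different groups. Off values rested on a median of 4 reads (1 to 105), so levels among off libraries were in most cases not comparable at this depth.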
